A study of Homo sapiens with 4 samples.

Results

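The genes described here are 9 enzymes of redox control and NADPH supply that the transcription factor NRF2 is known to switch on: NQO1, HMOX1, TXNRD1, SRXN1, PGD, ME1, AKR1B10, AKR1C1 and AKR1C3. Each was taken from the deposited array table by its symbol, using only probe sets annotated with that symbol alone, and the brightest of these on average stood for the gene. All 9 were found, with 19 probe sets among the 49386 of the table, and all 9 were among the 14970 genes tested. The arrays compared MTAC-P, which the labels call a resistant lung cancer line derived under mild exposure to a tyrosine kinase inhibitor (TKI), with PC9, a human lung adenocarcinoma line whose growth depends on a mutated EGFR. There were 2 arrays of each line. The labels name neither the inhibitor nor its dose nor the parent of MTAC-P, presence of drug at collection is not stated, and MTAC-P is a single line. Both lines were grown in DMEM with serum, and nothing in the labels tells whether the arrays of a line came from separate cultures, so p-values measure only the spread between these arrays, which may be technical.

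NRF2, encoded by NFE2L2, is held low by KEAP1, which presents it to the CUL3 ubiquitin ligase for degradation. Oxidants or electrophiles that modify KEAP1 let NRF2 accumulate, pair with small MAF proteins and bind antioxidant response elements near its target genes. Lung cancers often carry changes in this pathway, and aldo-keto reductases and NQO1 are among the genes by which its activity is usually read in lung cells. The enzymes below either spend NADPH to detoxify or repair (NQO1, TXNRD1, the aldo-keto reductases), make NADPH (PGD, ME1), or handle heme and oxidised peroxiredoxins (HMOX1, SRXN1).

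The core of the antioxidant response element is shown first because it is the sequence through which NRF2 reaches these genes. Promoter windows reaching from 250 bases before to 50 bases after the start were available from RefSeq (GRCh38.p14) for 7 of the 9 genes, as 9 windows of 300 bases. They were searched on both strands for TGACNNNGC. The motif was found in 4 of the 9 windows, belonging to TXNRD1, ME1 and PGD, and in 13.3% of all 35116 promoter windows of the same length. The windows of NQO1, SRXN1, AKR1C1 and AKR1C3 do not hold these letters, which says nothing about sites elsewhere, and HMOX1 and AKR1B10 were not searched. Each match is printed with 20 bases on either side, in the direction of the gene and with the match in capitals, so that a match on the opposite strand reads GCNNNGTCA.
TXNRD1, upstream start, same strand, 99 bases before it, chr12:104215660-104215708 plus: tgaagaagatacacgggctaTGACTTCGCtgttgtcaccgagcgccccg
TXNRD1, upstream start, opposite strand, 8 bases before it, chr12:104215751-104215799 plus: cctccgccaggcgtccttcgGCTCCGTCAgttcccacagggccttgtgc
TXNRD1, downstream start, opposite strand, 102 bases before it, chr12:104286910-104286958 plus: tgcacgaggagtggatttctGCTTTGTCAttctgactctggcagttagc
ME1, same strand, 137 bases before the start, chr6:83431160-83431208 minus: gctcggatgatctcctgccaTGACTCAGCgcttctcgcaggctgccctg
ME1, opposite strand, from base 12 after the start, chr6:83431012-83431060 minus: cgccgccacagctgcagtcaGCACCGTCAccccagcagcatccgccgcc
PGD, opposite strand, 201 bases before the start, chr1:10398843-10398891 plus: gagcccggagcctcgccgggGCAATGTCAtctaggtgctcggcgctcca
The first ME1 match also overlaps TGANTCA, the core of the AP-1 motif, and none of the other matches does. A match describes the letters only and was not tested for binding.

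Values are the authors' log2 expression values, 1 per probe set and array. The 4 arrays had medians from 4.85 to 4.88 over all probe sets. Epithelial markers were present in both lines: all 10 of the list lay above the dim value of 4.14, and their mean was 11.39 and 11.58 on the MTAC-P arrays and 11.53 and 11.62 on the PC9 arrays. Of the 8 fibroblast, 7 leukocyte and 6 endothelial markers on the array, 3, 3 and 2 lay under the dim value, among them COL3A1, LUM, PTPRC and TEK. All fibroblast and endothelial markers and 6 of the leukocyte markers averaged below 5.5. The log2 of the summed fibroblast level was 7.11 and 7.25 in MTAC-P and 7.20 and 7.38 in PC9, and that of the leukocyte level was 9.33 and 9.59 in MTAC-P and 9.27 and 9.25 in PC9. The endothelial sum stood at 6.98 and 7.42 in MTAC-P and at 7.22 and 7.27 in PC9. The poly-A spike-in probe sets averaged 8.14 and 8.19 in MTAC-P and 7.29 and 7.60 in PC9, a log2 difference of 0.71. The 3' minus 5' log2 difference of ACTB was 1.51 and 1.75 on the MTAC-P arrays and 1.72 and 2.49 on the PC9 arrays.

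The comparison asks whether the NRF2 enzymes separate the resistant line from PC9. No enzyme passed the test, and 0 of the 9 were 2-fold apart, beside 2.02% of all genes. HMOX1 and AKR1B10 had the widest gaps, 1.50-fold and 1.51-fold, each with the smaller mean in MTAC-P. PGD was 1.36-fold higher in MTAC-P. SRXN1 and ME1 differed by 1.05-fold and 1.06-fold. Of the 9 enzymes 3 had higher and 6 had lower means in MTAC-P, and the median log2 difference was -0.18, beside 0.031 over all genes tested. That median of the 9 was -0.06 without MTAC-P replicate 1 and -0.12 when all probe sets of each gene, dim ones included, were averaged. Of all genes, 53.8% had higher and 46.2% lower means in MTAC-P.

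The lines were compared with limma across all genes, with p-values adjusted by the Benjamini-Hochberg method and a threshold of 0.05. Of the 9 enzymes 0 passed, beside 3 of all genes (0.02%). At an unadjusted limma p under 0.05 stood 2 of the 9, HMOX1 and AKR1B10, beside 18.9% of all genes. Both had lower means in MTAC-P, which makes 2 lower and 0 higher, beside 11.1% and 7.76% of all genes. No overlap between the lines was seen for 6 of the 9, beside 53.2% of all genes. Of these 6, 2 were higher in MTAC-P, beside 28.3%, and 4 lower, beside 24.9%. Among the 18 probe sets of the 9 genes above the dim value, 0 passed limma's adjusted threshold, beside 0.0027% of all probe sets, and 4 had an unadjusted p under 0.05, beside 18% of them. With so few enzymes, these counts are not set apart from the whole table. The line difference exceeded the gap between duplicates in both lines for HMOX1, TXNRD1, PGD and AKR1C3, which is 4 of the 9, beside 38.5% of all genes. An exact permutation test of 2 arrays against 2 cannot give a 2-sided p below 0.333.

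**Figure D1:**
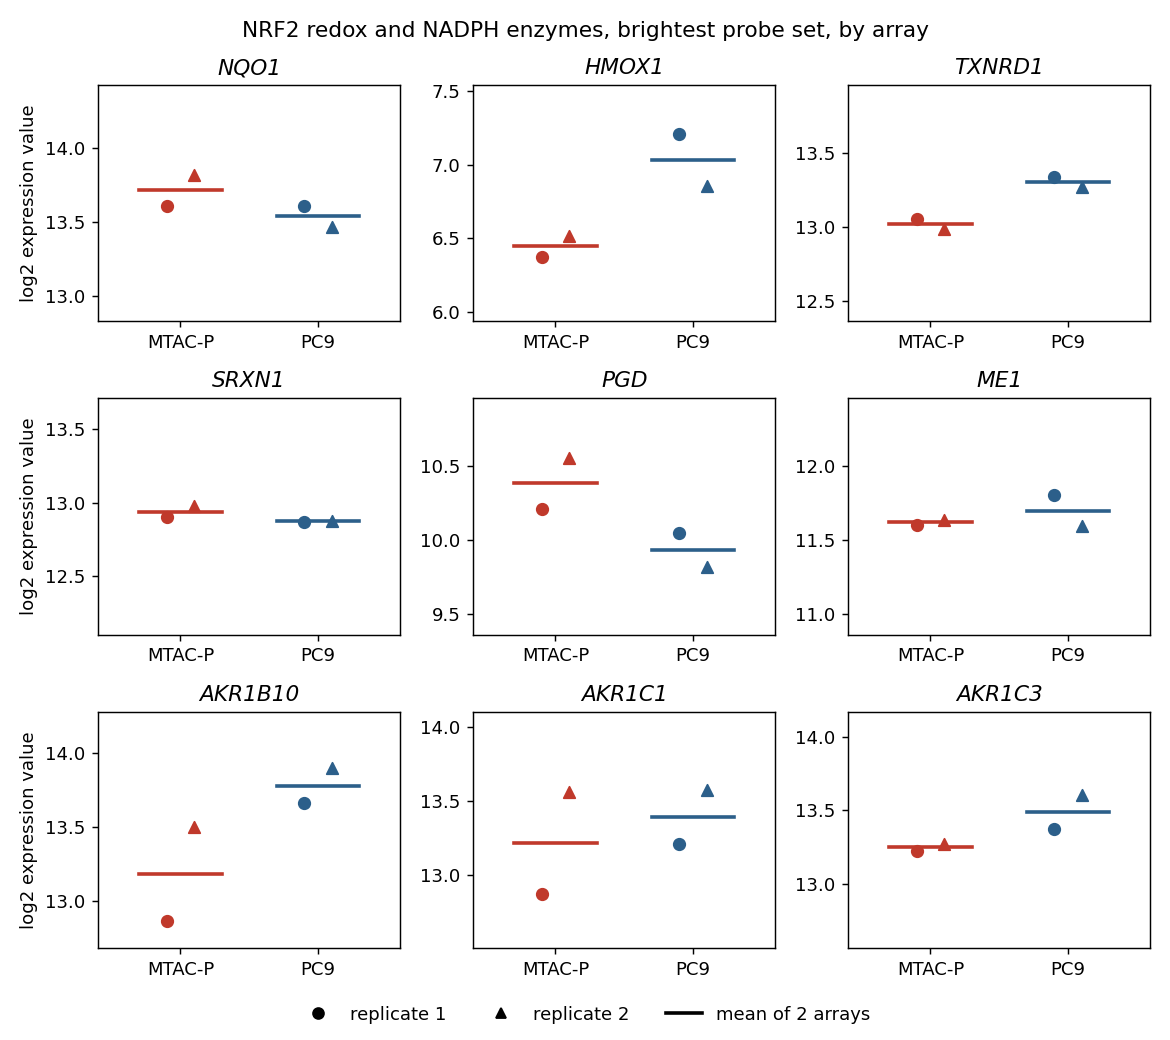
Log2 expression value of each enzyme gene on each array, with MTAC-P at the left and PC9 at the right of every panel. Circles are replicate 1, triangles replicate 2, bars the mean of 2 arrays, and every panel spans the same range of log2 units. MTAC-P lies wholly below PC9 for HMOX1, TXNRD1, AKR1B10 and AKR1C3 and wholly above it for PGD and SRXN1.

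NQO1 encodes the quinone reductase that uses NADH or NADPH to reduce quinones in a single 2-electron step. Its brightest probe set read 13.61 and 13.81 on the MTAC-P arrays and 13.61 and 13.47 on the PC9 arrays. The first MTAC-P array and the first PC9 array were level, so the lines overlapped. The log2 difference of NQO1 was 0.17 (SE 0.17, 95% interval -0.22 to 0.57, limma adjusted p = 0.601). Its other probe set read 12.55 and 12.57 in MTAC-P and 12.95 and 12.73 in PC9. There both MTAC-P arrays were the lower ones, and the difference was -0.28 (95% interval -0.68 to 0.13). The direction of NQO1 therefore depended on the probe set, and neither of them passed the test.

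HMOX1 encodes heme oxygenase 1, which opens the heme ring and releases iron, carbon monoxide and biliverdin. Its brightest probe set read 6.37 and 6.52 in MTAC-P and 7.21 and 6.85 in PC9. Both MTAC-P arrays lay below both PC9 arrays, with means of 6.45 ± 0.10 in MTAC-P and 7.03 ± 0.25 in PC9 (SD, n = 2 each). Its log2 difference was -0.58 (SE 0.18, 95% interval -1.03 to -0.14, limma adjusted p = 0.181), and leaving out 1 array kept it between -0.76 and -0.41. The other 2 probe sets of HMOX1 were dim, averaging 4.87 and 4.62, and differed by 0.13 and 0.11 with overlapping arrays, and averaging the probe sets gave -0.12. HMOX2, the constitutive heme oxygenase, read 10.08 and 10.11 in MTAC-P and 9.66 and 9.53 in PC9, a log2 difference of 0.50 (SE 0.15, limma adjusted p = 0.175). The difference of the brightest HMOX1 probe set thus had the opposite sign to that of HMOX2, while the 2 dim HMOX1 probe sets had the same sign as HMOX2. The gap between these differences was not tested.

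TXNRD1 encodes cytosolic thioredoxin reductase, the selenoenzyme that passes electrons from NADPH to thioredoxin. It read 13.05 and 12.99 in MTAC-P and 13.34 and 13.27 in PC9. The duplicates of each line lay within 0.067 of each other and the lines did not overlap. TXNRD1 thus differed by -0.28 (SE 0.15, 95% interval -0.65 to 0.08, limma adjusted p = 0.361), and without any 1 array it stayed between -0.32 and -0.25, the narrowest range of the 9. The other 2 probe sets of TXNRD1, with means of 9.26 and 9.15 over all arrays, differed by -0.015 and 0.0003, and their arrays overlapped. Averaging the probe sets of TXNRD1 gave -0.10.

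SRXN1 encodes sulfiredoxin, which restores peroxiredoxins whose active cysteine has been overoxidised. It has a single probe set here, which read 12.90 and 12.97 in MTAC-P and 12.87 and 12.88 in PC9. The arrays did not overlap, but the gap was small. SRXN1 differed by 0.065 (SE 0.15, 95% interval -0.30 to 0.43, limma adjusted p = 0.841).

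PGD, the dehydrogenase that makes NADPH at the second oxidative step of the pentose phosphate pathway, read 10.21 and 10.55 in MTAC-P and 10.05 and 9.82 in PC9. Both MTAC-P arrays were above both PC9 arrays. This gave PGD a difference of 0.45 (SE 0.19, 95% interval -0.01 to 0.90, limma adjusted p = 0.272). The other PGD probe set gave nearly the same difference, 0.39, also with no overlap. Without MTAC-P replicate 2 the difference of PGD was 0.28, and without MTAC-P replicate 1 it was 0.62.

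ME1 encodes the cytosolic malic enzyme, which makes NADPH while turning malate into pyruvate. Its brightest probe set read 11.60 and 11.64 in MTAC-P and 11.80 and 11.59 in PC9, and the lines overlapped. ME1 differed by -0.079 (SE 0.16, 95% interval -0.47 to 0.31, limma adjusted p = 0.820), and without PC9 replicate 1 it was 0.026. The second ME1 probe set read 9.43 and 9.44 in MTAC-P and 10.17 and 10.00 in PC9. There the lines did not overlap, with a log2 difference of -0.65 (SE 0.16, 95% interval -1.04 to -0.26, limma adjusted p = 0.146 over all probe sets above the dim value). The rule chose the probe set of ME1 with the smaller difference, and the average over its probe sets was -0.36.

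The line differences of the brightest and the second probe set could be compared for 7 of the enzymes and for 8920 genes in all. They were 0.71 apart for HMOX1, whose brightest probe set gave -0.58 and whose second gave 0.13, and 5.39% of the 8920 genes were at least as far apart. For ME1 the gap was 0.57, reached by 9.99% of genes, and for NQO1 it was 0.45, reached by 16.9%. The median gap over all genes was 0.184. AKR1B10, AKR1C1 and PGD lay below that median, at 0.067, 0.079 and 0.055, and TXNRD1 lay above it at 0.27. The sign differed between the 2 probe sets for NQO1 and HMOX1, which is 2 of the 7, beside 27.8% of all genes.

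**Figure D2:**
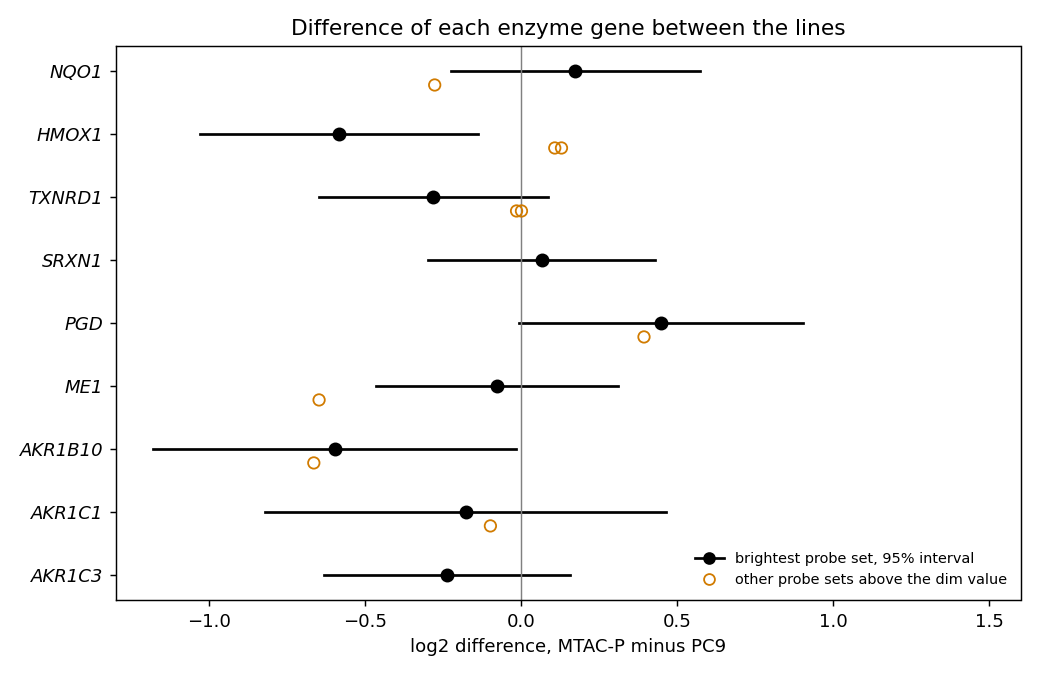
Log2 difference, MTAC-P minus PC9, of each enzyme gene. Filled points with lines are the brightest probe set and its 95% interval from limma, and open points are the other probe sets above the dim value. Only the intervals of HMOX1 and AKR1B10 exclude 0, and the open points of NQO1 and HMOX1 lie on the other side of 0. Those of TXNRD1 lie almost at 0, at -0.015 and 0.0003.

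The aldo-keto reductases use NADPH to reduce aldehydes and ketones. AKR1B10, which acts on retinal and lipid aldehydes, read 12.87 and 13.50 in MTAC-P and 13.66 and 13.90 in PC9. All MTAC-P values lay below all PC9 values, yet the MTAC-P duplicates were 0.63 apart, more than the lines. AKR1B10 differed by -0.60 (SE 0.24, 95% interval -1.18 to -0.02, limma adjusted p = 0.256). Leaving out MTAC-P replicate 1 gave -0.28, and leaving out its replicate 2 gave -0.91.

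All other probe sets that match AKR1B10 had the same direction and the same order of arrays. The second probe set annotated to AKR1B10 alone differed by -0.67. A probe set shared with AKR1B15 differed by -0.87 and one shared with AKR1B15 and the pseudogene AKR1B10P1 by -0.83. AKR1B15, a close paralog, had a log2 difference of -0.89 (SE 0.34, limma adjusted p = 0.237) on its own probe set. It was -0.40 without MTAC-P replicate 1. Since these sequences are nearly alike, the signals of the AKR1B genes may be shared and are uncertain as separate measurements.

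AKR1C1, which inactivates progesterone by reducing its side chain ketone, read 12.87 and 13.57 in MTAC-P and 13.21 and 13.58 in PC9. The lines overlapped, and in both lines the replicate 2 array was the higher one. The log2 difference of AKR1C1 was -0.18 (SE 0.27, 95% interval -0.82 to 0.46, limma adjusted p = 0.747), and it turned to 0.17 without MTAC-P replicate 1 and to 0.0052 without PC9 replicate 2. The second AKR1C1 probe set, with 12.69 and 13.39 in MTAC-P and 12.88 and 13.40 in PC9, differed by -0.10.

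AKR1C3, which makes testosterone from androstenedione and also acts on prostaglandins, read 13.23 and 13.27 in MTAC-P and 13.37 and 13.60 in PC9. MTAC-P lay below PC9 on every array. AKR1C3 had a log2 difference of -0.24 (SE 0.16, 95% interval -0.63 to 0.16, limma adjusted p = 0.462), and it was -0.12 without PC9 replicate 2. The other AKR1C3 probe set averaged 3.88, under the dim value.

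AKR1C2, the neighbour of AKR1C1 and AKR1C3 that reduces dihydrotestosterone, is not among the 9 but is nearly identical to AKR1C1. It read 13.62 and 13.92 in MTAC-P and 13.14 and 13.40 in PC9. Its arrays did not overlap and its log2 difference was 0.50 (SE 0.19, 95% interval 0.05 to 0.95, limma adjusted p = 0.230), opposite in sign to those of AKR1C1 and AKR1C3. Its other probe sets above the dim value differed by 0.38 without overlap and by 0.03 with overlap, and the average over all probe sets of AKR1C2 was 0.16. A probe set annotated to both AKR1C1 and AKR1C2 read 13.01 and 13.33 in MTAC-P and 13.01 and 13.10 in PC9, a log2 difference of 0.12 that lies between those of AKR1C1 and AKR1C2. Because probes of these paralogs can share transcripts, the split between AKR1C1 and AKR1C2 is uncertain.

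**Figure D3:**
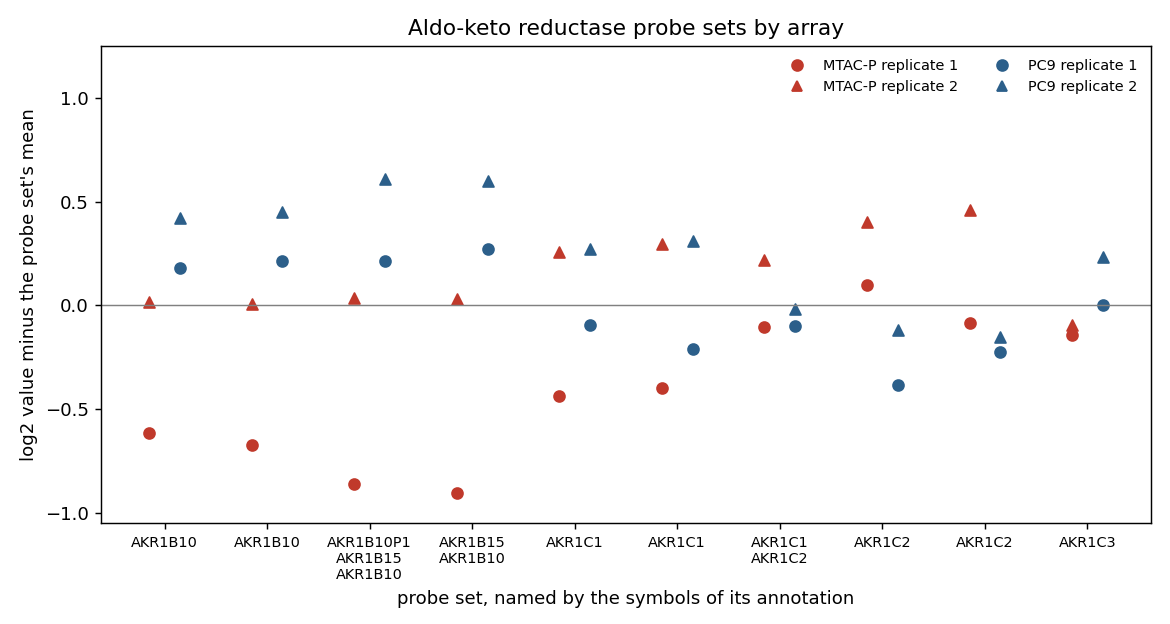
Log2 value minus the mean of the probe set over the 4 arrays, MTAC-P in red left of PC9 in blue, circles for replicate 1 and triangles for replicate 2. Shown are probe sets with a mean above 6 that match AKR1B10, AKR1C1, AKR1C2 or AKR1C3, alone or with other symbols. All probe sets that match AKR1B10 have both MTAC-P arrays below both PC9 arrays. The probe sets of AKR1C1 alone follow the replicate number, and those of AKR1C2 alone have both MTAC-P arrays above both PC9 arrays. In the probe set shared by AKR1C1 and AKR1C2 the lines overlap.

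The replicate 2 array was above the replicate 1 array in both lines for SRXN1, AKR1B10, AKR1C1 and AKR1C3, which is 4 of the 9 (44.4%), beside 29.2% of all genes. For AKR1C1 these duplicate gaps, 0.70 in MTAC-P and 0.37 in PC9, exceeded the line difference, and the part of RNA quality or batch in them was not tested. The values of NQO1, TXNRD1, SRXN1, AKR1B10, AKR1C1 and AKR1C3 ran from 12.87 to 13.90, where the highest value of the whole table was 14.6. Whether differences were compressed near that top was not tested. Among all tested genes, the patterns closest to that of AKR1B10 over the 4 arrays, each gene centred on its mean, were those of TMEM144, PDCD5 and CORO2A, at Euclidean distances of 0.0271, 0.0508 and 0.0971, where the median distance of all genes was 0.847. With 4 arrays, many genes can lie that close.

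Among the genes that control NRF2, 6 had higher and 7 had lower means in MTAC-P and 0 passed the test. NFE2L2 itself read 10.72 and 10.35 in MTAC-P and 11.41 and 10.83 in PC9, a log2 difference of -0.58 (SE 0.24, 95% interval -1.17 to 0.004, limma adjusted p = 0.268). The arrays did not overlap, and the difference was -0.29 without PC9 replicate 1. A second NFE2L2 probe set differed by -0.53 with overlapping arrays. KEAP1, the sensor that keeps NRF2 low, differed by 0.13 (SE 0.20) with overlapping arrays, and by -0.12 without MTAC-P replicate 2. BACH1, a repressor that competes for the same elements and is best known for holding HMOX1 down, read 6.98 and 6.50 in MTAC-P and 7.90 and 7.27 in PC9, a log2 difference of -0.84 (SE 0.27, limma adjusted p = 0.180) that was -0.53 without PC9 replicate 1 and -0.23 with its probe sets averaged. MAFF, a small MAF partner, had the largest positive difference of the list, 0.57 (SE 0.29, limma adjusted p = 0.340), which was 0.13 without PC9 replicate 2. The median of the list was -0.038 and turned to 0.055 without MTAC-P replicate 1.

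SLC7A11, which carries cystine into the cell for glutathione synthesis, read 9.38 and 9.25 in MTAC-P and 10.23 and 10.26 in PC9, and its log2 difference was -0.93 (SE 0.15, limma adjusted p = 0.0995), or -0.45 with its probe sets averaged. GCLC, the catalytic subunit of the first step of glutathione synthesis, differed by -0.92 (SE 0.19, limma adjusted p = 0.113), or -0.49 on such an average. GCLM, the modifier subunit of the same enzyme, differed by 0.16 (SE 0.16, limma adjusted p = 0.622), by 0.05 without MTAC-P replicate 2 and by -0.16 with probe sets averaged. Of the 8 genes tested, 5 had higher and 3 lower means in MTAC-P, 0 passed, and the median was 0.083, or -0.040 without MTAC-P replicate 2 and 0.027 with averaged probe sets. CHAC1, which breaks glutathione down, had the largest positive difference, 0.59 (SE 0.16, limma adjusted p = 0.148), with a PC9 mean of 4.60 close to the dim value. It was 0.31 with probe sets averaged and 0.39 with a pseudocount of 16 added on the linear scale.

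In a further list of NRF2 targets outside the 9, 14 of the 16 tested had lower means in MTAC-P, beside 46.2% of all genes. FECH (-0.15) was counted here and is also in the heme and iron list. All other targets placed in the other lists were not counted, and those went both ways. SLC7A11 (-0.93) and GCLC (-0.92) had lower means, and GCLM (0.16) and AKR1C2 (0.50) higher ones. One of the 16, NRG4, averaged 4.22 in MTAC-P and 4.44 in PC9, close to the dim value. The median of the 16 was -0.29 and lay between -0.44 and -0.16 when 1 array was left out, and averaging probe sets also gave -0.16. The lines were fully apart for 10 of the 16, beside 53.2% of all genes, and 0 passed the test. ABCC2, an exporter of glutathione and glucuronide conjugates, had the largest negative difference, with 10.00 and 9.97 in MTAC-P and 10.50 and 10.91 in PC9 (log2 difference -0.72, SE 0.19, limma adjusted p = 0.141). OSGIN1, an oxidative stress response gene, had the largest positive difference, with 6.66 and 7.28 in MTAC-P and 6.35 and 6.30 in PC9 (0.65, SE 0.23, limma adjusted p = 0.215), and it was 0.34 without MTAC-P replicate 2.

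Of 16 other genes of the pentose phosphate pathway and NADPH supply, 10 had higher and 6 lower means in MTAC-P, 0 passed, and the median was 0.13, or 0.085 without PC9 replicate 2. TALDO1 and TKT, enzymes of the branch that returns sugars to glycolysis, differed by -0.033 and -0.022 (SE 0.16 each), and the sign of each turned when 1 array was left out. The 2 NADP-dependent isocitrate dehydrogenases stood at the ends of the list. IDH2, the mitochondrial form, read 7.59 and 8.04 in MTAC-P and 7.20 and 6.92 in PC9, a log2 difference of 0.76 (SE 0.21, limma adjusted p = 0.150). IDH1, the cytosolic form, read 8.50 and 8.85 in MTAC-P and 9.40 and 9.18 in PC9, a log2 difference of -0.62 (SE 0.19, limma adjusted p = 0.172). Neither overlapped between the lines.

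In the thioredoxin and peroxiredoxin list 8 had higher and 6 lower means in MTAC-P, 0 passed, and the median was 0.040, or 0.0068 without MTAC-P replicate 1. TXNRD2, the mitochondrial counterpart of TXNRD1, had the largest difference, 1.02 (SE 0.36, limma adjusted p = 0.213), with 8.60 and 7.73 in MTAC-P and 7.53 and 6.76 in PC9. It was 0.59 without MTAC-P replicate 1 and 0.63 without PC9 replicate 2. TXN, the thioredoxin that TXNRD1 reduces, differed by -0.23 (SE 0.16, limma adjusted p = 0.462), close to the -0.28 of TXNRD1. TXNIP, which binds and blocks thioredoxin, had the largest negative difference, -0.44 (SE 0.31), with overlapping arrays, and it was 0.017 without PC9 replicate 2.

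Of 19 glutathione peroxidases, transferases and glutaredoxins, 10 had higher and 9 lower means in MTAC-P, with a median of 0.015 and 0 past the test. GPX3, GSTA1 and GSTA4 among them had line means from 4.09 to 4.65, near the dim value of 4.14. GLRX, a glutaredoxin that removes glutathione from proteins, had the largest negative difference, -1.08 (SE 0.32, limma adjusted p = 0.167), with 6.53 and 7.12 in MTAC-P and 7.48 and 8.33 in PC9. It was -0.66 without PC9 replicate 2. GSTO1, a glutathione transferase, had the largest positive one, 0.35 (SE 0.16). The list of other aldo-keto and carbonyl reductases held 6 higher and 8 lower means in MTAC-P among 14 genes. Its median was -0.034 and 0 passed the test. Its largest positive and negative differences were those of AKR1C2 and AKR1B15. In it AKR1D1, AKR7A3, AKR1C4 and AKR1E2 had line means from 4.09 to 4.79, near the dim value of 4.14.

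Among 12 genes of heme and iron handling, 6 had higher and 6 lower means in MTAC-P, 0 passed, and the median was 0.083, or -0.078 without MTAC-P replicate 2. SLC40A1, which encodes the iron exporter ferroportin, had the largest difference, -1.06 (SE 0.18, limma adjusted p = 0.102), with 4.06 and 4.39 in MTAC-P and 5.35 and 5.21 in PC9. One MTAC-P array was thus under the dim value of 4.14 and the other close to it. The difference of SLC40A1 was -0.66 with the pseudocount of 16 and -0.45 with probe sets averaged, where HMOX2, the gene with the largest positive difference, stood at 0.54.

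**Figure D4:**
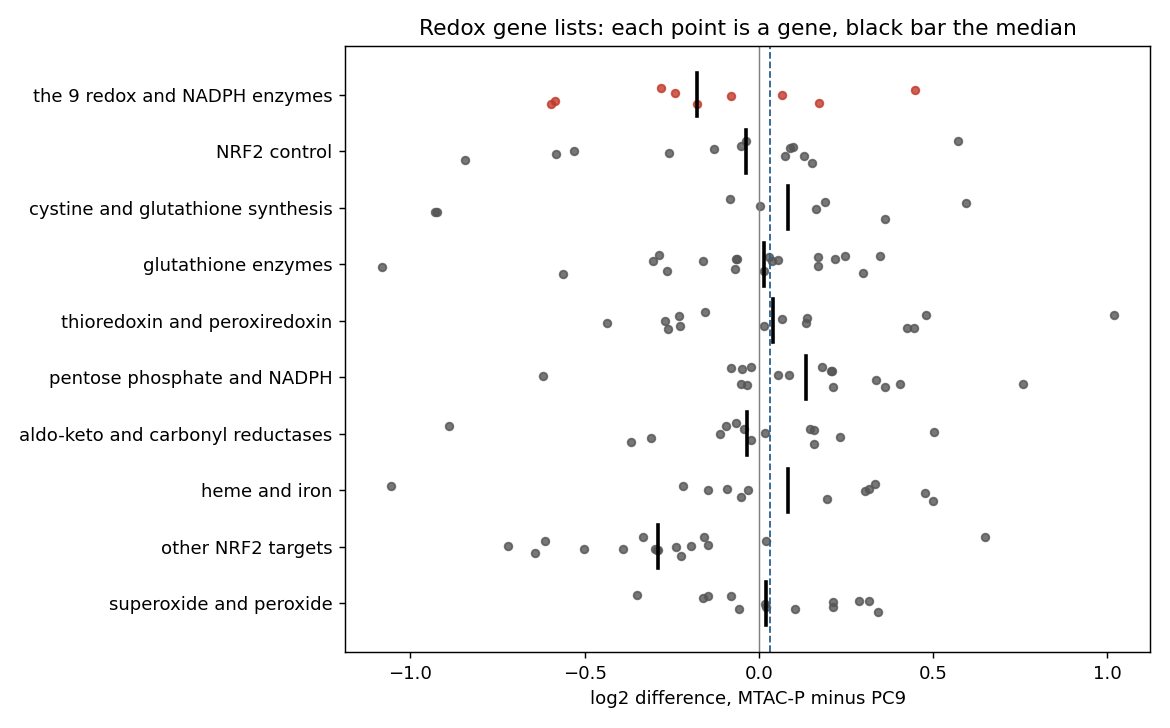
Log2 difference, MTAC-P minus PC9, of every tested gene in each redox list. Points are genes, black bars the list medians, and the dashed line the median of all genes tested, 0.031. The medians of the 9 enzymes and of the list named other NRF2 targets lie lowest, at -0.18 and -0.29. Except for FECH, that list leaves out targets placed in the remaining lists, whose medians lie between -0.038 and 0.13.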

How the data were processed

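Per the labels' protocols, total RNA was extracted with Trizol and labelled with Cy3 by a one-colour Agilent kit, and the software Agilent Feature Extraction 10.7 is named, per the submitters' processing notes. Names of the probe sets follow Affymetrix conventions, and how this relates to the Agilent steps is not given in the sources used here. Values in the deposited table are log2 expression values, a scale inferred from their range of 3.32 to 14.6. The background correction and normalization by the authors are not stated in these sources. The values were used as deposited, without further scaling.

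Of 49386 probe sets, 45253 had 1 gene symbol in GEO's platform annotation, 1327 several, 2713 none, and 93 were controls. Gene identifiers served to update symbols to the RefSeq table of GRCh38.p14, which held 14950 of the 14970 genes tested. Each gene was represented by its brightest single-symbol probe set. Of 18239 genes, 3269 were left out because their mean was below 4.14, the 25th percentile over the table's probe sets (the dim value). MTAC-P was compared with PC9 by lmFit and eBayes of limma 3.58.1 (R 4.3.3), with Benjamini-Hochberg adjustment over all genes. Probe sets were fitted in the same way over all 36979 above the dim value. The fit was also run on 20 simulated tables of 14970 genes. Each had 200 randomly chosen genes shifted and independent normal noise, with variances drawn from the fitted prior. It recovered 24.2% of genes shifted by 1 log2 unit, 93% at 2 units and 98.7% at 3 units, with 8.3 wrong calls per simulation. Noise in the real arrays may differ, so these shares need not hold for them. In the data, 303 genes were at least 2-fold apart and 3 passed. The number of arrays limits the precision.

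The 9 enzymes and all gene lists were chosen with earlier results of these data known. Genes outside the 9 were named as the largest positive and negative difference of each list, plus NFE2L2, KEAP1, GCLC, GCLM, SLC7A11, TALDO1, TKT, TXN and AKR1C2. Alternatives covered scaling, the dim filter, the choice of probe set, the prior variance, a pseudocount, the replicate number as a block and leaving out each array. Applying them also to the lists and other named genes was decided after seeing the data. Plots were made in Python 3.11.15 with matplotlib 3.10.9.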

Additional observations from a re-analysis of the deposited data

How the results depend on the processing

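None of the 9 enzymes passed the threshold in any setting but the replicate block, and the count of enzymes was 0 whichever array was left out. The labels share replicate numbers between lines without saying that they mark a shared culture or day. Deviations from the line means correlated at 0.28 between arrays of the same number, and with 2 pairs this does not establish a pairing. With the replicate block 2079 genes (13.9% of those tested) and 2 of the enzymes passed, HMOX1 (-0.585, limma adjusted p = 0.0348) and AKR1B10 (-0.598, limma adjusted p = 0.0284). A block fitted beside the line effect leaves 1 residual degree of freedom per gene. Among the 9 enzymes the SE ran from 0.183 (TXNRD1) to 0.19 (PGD) with the block. Without the block it ran from 0.151 (SRXN1) to 0.266 (AKR1C1). The block p-values thus rest mainly on variance pooled over genes, and these calls mainly follow the size of the difference. The number of genes past the threshold, 3 as reported, was 77 with a variance trend, 1 with the 50th percentile filter, 1 with the pseudocount of 16, 0 with the mean of all probe sets, 0 in the unmoderated test, and 0 to 68 when 1 array was left out. The median of the enzymes ranged from -0.249 without MTAC-P replicate 2 to -0.0617 without MTAC-P replicate 1. NQO1 reversed to -0.0522 with its probe sets averaged and to -0.278 with the second one, and HMOX1 to 0.129 with the second one. Leaving out 1 array moved AKR1C1 between -0.526 and 0.17, ME1 between -0.183 and 0.0256, KEAP1 between -0.12 and 0.376, TALDO1 between -0.127 and 0.0607, TKT between -0.0966 and 0.0516 and TXNIP between -0.891 and 0.0172. With the mean of all probe sets GCLM reversed to -0.155, TALDO1 to 0.0995 and TKT to 0.037, and TKT was 0.00546 with 75th percentile centring. Among list medians, the glutathione enzymes reversed to -0.0238 without a dim filter and to -0.0416 with the mean of probe sets, and the aldo-keto list to 0.0026 with the mean. When 1 array was left out, medians ranged from -0.0762 to 0.0628 for the aldo-keto list, -0.0404 to 0.179 for glutathione synthesis, -0.0831 to 0.0561 for glutathione enzymes, -0.0776 to 0.287 for heme and iron, -0.12 to 0.0549 for NRF2 control and -0.0223 to 0.159 for superoxide and peroxide. Of 374 such values of the 25 other named genes, 15 passed the threshold, all with the replicate block except SLC7A11 with a variance trend (limma adjusted p = 0.0489). The causes of these changes were not tested.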

Other observations

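A further list held genes that make superoxide or peroxide (NOX1, NOX4, DUOX1 and CYBA) and genes that remove them or repair oxidised methionine, together with the oxidative stress protein PARK7. Of the 13 tested, 8 had higher and 5 lower means in MTAC-P. Among these 13, NOX1, NOX4, DUOX1 and MSRB3 had line means from 4.09 to 4.59, close to the dim value of 4.14. By limma 0 passed the adjusted threshold and 0 had an unadjusted p under 0.05, beside 18.9% of all genes. The arrays were fully apart for 7 of the 13, beside 53.2% of all genes. The median log2 difference was 0.019, or -0.022 without PC9 replicate 1. MSRB1, a methionine sulfoxide reductase, had the largest positive difference, with 11.33 and 11.76 in MTAC-P and 11.22 and 11.18 in PC9, a log2 difference of 0.34 (SE 0.19, limma adjusted p = 0.378), and it was 0.13 without MTAC-P replicate 2. CAT, which encodes catalase, had the largest negative one, with 8.32 and 7.996 in MTAC-P and 8.58 and 8.43 in PC9, a log2 difference of -0.35 (SE 0.18, limma adjusted p = 0.341), and it was -0.19 without MTAC-P replicate 2. Neither gene overlapped between the lines.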
